A study of Mus musculus with 23 samples.

Results

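Apoe, Clu, Sorl1, Sorcs1, Sorcs2, Sorcs3, Lrp1, Vldlr and Lrp8 were examined in the CA3 region of the hippocampus of UBB+1 tg mice and wild-type mice. They encode carriers of brain lipid and receptors that bind or sort them. The rule that defines the 9 genes uses this role and no measured value, although it was written with earlier results of these data known. Every probe set that the array annotation gives to one of them alone was used. This gave 25 probe sets, 18 on the MOE430A array and 7 on the MOE430B array, of 35040 probe sets naming 1 gene on both arrays, which cover 18192 genes. A probe set is a group of short probes whose brightness is summarised in 1 value, given here on the log2 scale after RMA (robust multi-array average) normalization.

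UBB+1 tg mice were heterozygous for the transgene, of 1 line on a C57BL/6J background, and expressed human UBB+1, a frameshifted ubiquitin that inhibits the proteasome, under the CaMKIIα promoter, which is active in forebrain excitatory neurons. Wild-type mice were littermates that carried no transgene. All animals were 18 months old, CA3 was cut from brain sections with a laser, and 5 ng of its RNA was copied in 2 amplification rounds before hybridisation. MOE430A held 6 UBB+1 tg and 5 wild-type animals, and MOE430B the same animals and 1 more wild-type animal. The sex of these animals was not given, and all cells of the cut tissue contributed RNA, not only the neurons in which the promoter is active.

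In the brain, apolipoprotein E is secreted mainly by astrocytes, and by microglia, and carries cholesterol and phospholipids to neurons. Clusterin, the product of Clu, is a secreted chaperone that also travels in lipoprotein particles. Lrp1, Vldlr and Lrp8 belong to the LDL receptor family and take up such particles, and Vldlr and Lrp8 are also the receptors of reelin, which positions neurons in development and adjusts synapses in the adult. Sorl1 and the Sorcs receptors share a VPS10 domain and move cargo such as the amyloid precursor protein and neurotrophin receptors between the Golgi, endosomes and the cell surface. Variants in several of these genes are associated with Alzheimer's disease in humans.

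None of the 25 probe sets met the call threshold, a false discovery rate of 10% in limma. The same held for all 22625 probe sets tested on MOE430A (0% called) and all 22511 on MOE430B (0% called), so the absence of calls is not particular to these genes. At an unadjusted p under 0.05, limma found 2 of the 18 probe sets on MOE430A, one each of Sorl1 and Sorcs2, and 1 of the 7 on MOE430B, of Lrp8. All 3 were higher in UBB+1 tg mice. Over the whole arrays this threshold was met in that direction by 1.91% of MOE430A and 1.52% of MOE430B. No probe set of the 9 genes met it in the other direction, as 1.57% of MOE430A and 1.53% of MOE430B did, and in either direction it was met by 3.48% and 3.05%. On MOE430A, 11 of the 18 probe sets had a higher mean in UBB+1 tg mice and 7 a lower one, with a median log2 fold change of 0.08, against 51.7% higher and a median of 0.00 over all probe sets. On MOE430B, 6 of the 7 were higher, with a median of 0.22, against 47.6% and a median of -0.01. In no probe set of the 9 genes were the genotypes free of overlap. Of all probe sets, 0.115% for MOE430A and 0.0622% for MOE430B lay wholly above wild type, and 0.119% and 0.08% wholly below. All UBB+1 tg animals lay above the wild-type mean in 3 members on MOE430A, of Sorl1, Sorcs2 and Vldlr (5.41% of the array), and in 0 members on MOE430B (2.92% of the array).

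**Figure D1:**
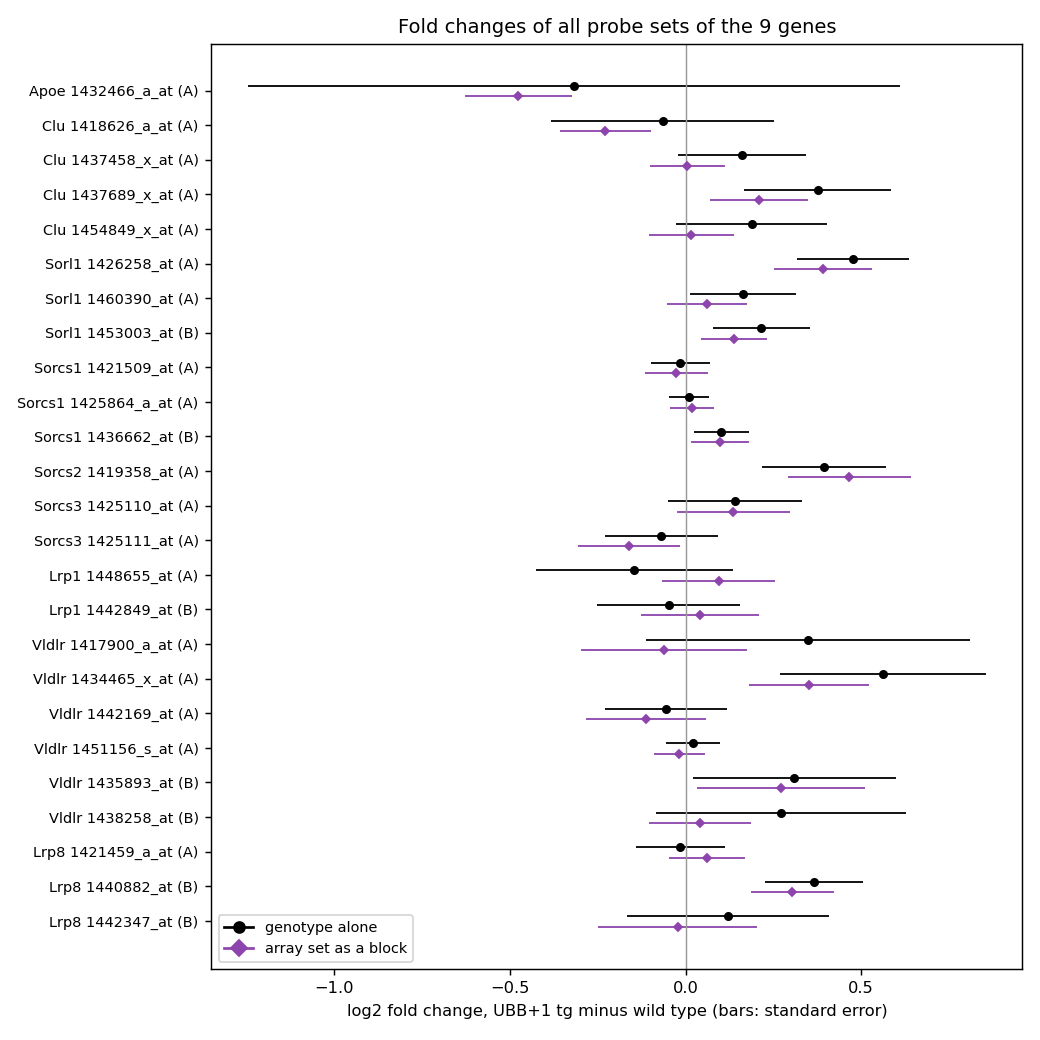
Log2 fold change of UBB+1 tg minus wild type with its standard error for the 25 probe sets (A, MOE430A; B, MOE430B), from limma for genotype alone (black circles) and blocked by array set (purple diamonds). Apoe has by far the widest standard error of the 25 with genotype alone (0.93), which narrows to 0.15 in the blocked fit.

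The arrays of both genotypes fell into 3 sets by the similarity of their whole profiles. The sets differed in a 3'-5' difference, the log2 signal of the probe sets at the 3' end of the control genes Gapdh and β-actin minus that at their 5' end, a sign of how far the copied RNA reached from its 3' end. On MOE430A it was 2.65 to 3.43 in the low set (UBB+1 tg animal tg271, wild-type animals wt287 and wt290), 4.44 to 4.62 in the middle set (4 UBB+1 tg animals tg273, tg274, tg276 and tg277, and wild-type animals wt291 and wt321) and 6.05 to 6.10 in the high set (tg270 and wt289). The sets were found from the data and are not conditions of the study. Between genotypes the difference was 4.61 ± 0.83 in UBB+1 tg mice and 4.10 ± 1.45 in wild-type mice (SD, n = 6 and 5), with a two-sided exact permutation p of 0.435. The main results below are therefore also given from a fit that holds the array set as a block. There, no probe set passed the false discovery rate either, and 2 of the 18 probe sets on MOE430A were higher at an unadjusted p under 0.05 (3.77% of the array) and 1 was lower (3.42% of the array). On MOE430B, 1 of the 7 was higher (2.38% of the array) and 0 were lower (2.68% of the array).

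The promoters of 4 of the genes are shown because Vldlr, Sorl1 and Lrp8 had the highest fold changes with genotype alone among the genes with an entry in the promoter table, and Apoe the lowest of the 25 probe sets. The sequences are the RefSeq promoters on GRCm38.p6, running from before to just after the first listed start, 5′ to 3′ on the gene's strand, and 7 of the 9 genes had an entry. The windows of Lrp8 and Apoe lie wholly within the span of the gene given below, downstream of its outermost 5′ end. Capitals mark the GC box, searched as GGGCGG on both strands.
Sorl1, chr9:42124248-42124547, minus strand: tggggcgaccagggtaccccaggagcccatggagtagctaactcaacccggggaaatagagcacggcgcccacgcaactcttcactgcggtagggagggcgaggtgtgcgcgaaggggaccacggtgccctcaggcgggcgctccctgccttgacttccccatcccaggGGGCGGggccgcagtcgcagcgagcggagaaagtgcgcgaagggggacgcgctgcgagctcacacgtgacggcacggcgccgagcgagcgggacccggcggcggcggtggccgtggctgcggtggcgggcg
Vldlr, chr19:27216234-27216533, plus strand: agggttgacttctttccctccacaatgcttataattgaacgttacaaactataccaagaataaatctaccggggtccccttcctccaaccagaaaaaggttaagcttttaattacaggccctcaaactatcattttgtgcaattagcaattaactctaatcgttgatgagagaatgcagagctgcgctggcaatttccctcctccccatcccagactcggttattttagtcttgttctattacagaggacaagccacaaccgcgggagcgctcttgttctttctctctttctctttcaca
Lrp8, chr4:107802635-107802934, plus strand: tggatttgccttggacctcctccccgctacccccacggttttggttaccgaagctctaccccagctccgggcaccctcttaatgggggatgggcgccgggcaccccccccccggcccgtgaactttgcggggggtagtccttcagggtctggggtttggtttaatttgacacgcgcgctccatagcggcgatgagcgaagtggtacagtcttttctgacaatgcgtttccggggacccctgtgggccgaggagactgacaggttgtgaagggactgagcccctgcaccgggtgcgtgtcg
Apoe, chr7:19699139-19699438, minus strand: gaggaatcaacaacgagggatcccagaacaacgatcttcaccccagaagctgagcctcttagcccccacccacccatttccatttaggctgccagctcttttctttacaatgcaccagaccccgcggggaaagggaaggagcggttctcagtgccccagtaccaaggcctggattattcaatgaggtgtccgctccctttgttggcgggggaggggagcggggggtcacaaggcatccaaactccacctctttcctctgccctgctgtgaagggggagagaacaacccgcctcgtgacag

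Of these 4 windows only that of Sorl1 held a GC box, which 35.9% of the 27025 promoters in the table hold. It also held the E-box CACGTG, found in 7.24% of all promoters. Its content of G and C was 72.3%, against 62.7% for Lrp8, 57.7% for Apoe and 43.0% for Vldlr, and the median over all promoters was 52.7%. None of the 4 windows held TATAAA (14.2% of promoters), TGACGTCA (1.88%), TGANTCA (7.93%) or AGGTCA (16.0%), all searched on both strands. These are matches of letters only. Vldlr, Sorl1 and Lrp8 thus had no searched motif in common in these windows. Windows at later listed starts are not shown and differ. A further window of Vldlr (68.0% G and C) held a GC box, a further window of Apoe held TATAAA, and a further window of Lrp8 held AGGTCA.

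Apoe, the main lipid carrier secreted by glia, lies on chromosome 7 (19696244 to 19701310, GRCm38.p6) and had a single probe set, 1432466_a_at on MOE430A. The log2 intensity in UBB+1 tg mice was lowest at 6.52, with a median of 10.40 and a highest value of 11.03. In wild-type mice it was 11.07, 6.98, 10.89, 11.02 and 10.82. One animal of each genotype, tg270 and wt289, lay far below the others, and the rest of both genotypes lay between 10.11 and 11.07. The mean was 9.84 ± 1.65 in UBB+1 tg mice and 10.16 ± 1.78 in wild-type mice (SD, n = 6 and 5), which is a log2 fold change of -0.32 ± 0.93 (SE; limma, adjusted p = 0.986). This difference was smaller than the spread within either genotype.

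The low animals tg270 and wt289 are the high array set. Apoe in these 2 animals was 15.5-fold lower than in the other 9 (a log2 difference of -3.95). Of 22625 probe sets, 1401 had both animals of the high set below all others, 87 of these by more than 1 on the log2 scale and 8 by more than 2. Apoe showed the widest such gap of the array, 3.13, followed by Atp6v0e2 (2.31), a subunit of the proton pump of lysosomes and synaptic vesicles, and Atp9a (2.23), a lipid flippase of endosomes. The array set held 95.9% of the variance of Apoe between animals, and genotype 1.03%.

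Within each array set the mean of Apoe was lower in UBB+1 tg mice. It was 10.25 in tg271, against a mean of 10.98 in the 2 wild-type animals of the low set. In the middle set it was 10.56 in the 4 UBB+1 tg animals, against 10.92 in the 2 wild-type animals, and in the high set 6.52 in tg270, against 6.98 in wt289. These differences were -0.73, -0.36 and -0.45. In the blocked fit the log2 fold change was -0.48 ± 0.15 (SE; limma, unadjusted p = 0.0107 and adjusted p = 0.665). Without both animals of the high set it was -0.45 ± 0.17 (SE; limma, adjusted p = 0.913). The mean Apoe signal of UBB+1 tg mice was thus lower inside every array set, but the low and high sets hold a single UBB+1 tg animal each. In the middle set tg274, at 11.03, lay above both wild-type animals (11.02 and 10.82). The difference did not pass the test over all probe sets. With genotype alone, leaving out tg270 turned the value to 0.35, and leaving out wt289 gave -1.11, so that 1 animal decided the direction. Entering the 3'-5' difference as a covariate gave 0.25 ± 0.65 (SE).

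The mean level of 10 astrocyte markers (Gfap, Aqp4, Slc1a3, Slc1a2, Aldh1l1, Aldoc, S100b, Gja1, Gjb6 and Fgfr3) was 7.70 in tg270 and 7.34 in wt289 of the high set, against 7.33 to 7.80 in the other animals, so that wt289 was near the lowest of them. Between genotypes it was 7.52 ± 0.14 in UBB+1 tg mice and 7.51 ± 0.17 in wild-type mice (SD, n = 6 and 5; two-sided exact permutation p = 0.926), with 4 of 10 markers higher and 6 lower and a median log2 fold change of -0.04. The single markers went both ways in the high set. Set against the other animals, they ran from -0.70 for Aldoc and -0.41 for Slc1a2 to 0.46 for Aqp4 and 1.04 for S100b on the log2 scale, all far smaller than the difference of Apoe. Whether astrocytes had a part in the Apoe values was not tested. The mean of 9 microglial markers was 7.06 in tg270 and 6.76 in wt289 of the high set, against 6.90 to 7.29 in the others, so that wt289 was the lowest animal. By genotype it was 7.02 ± 0.09 in UBB+1 tg mice and 7.14 ± 0.23 in wild-type mice (exact permutation p = 0.292), with 2 of 9 markers higher and 7 lower and a median of -0.12. Whether microglia had a part in the Apoe values was not tested. In cut tissue, fewer cells of a type and less RNA per cell cannot be told apart.

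**Figure D2:**
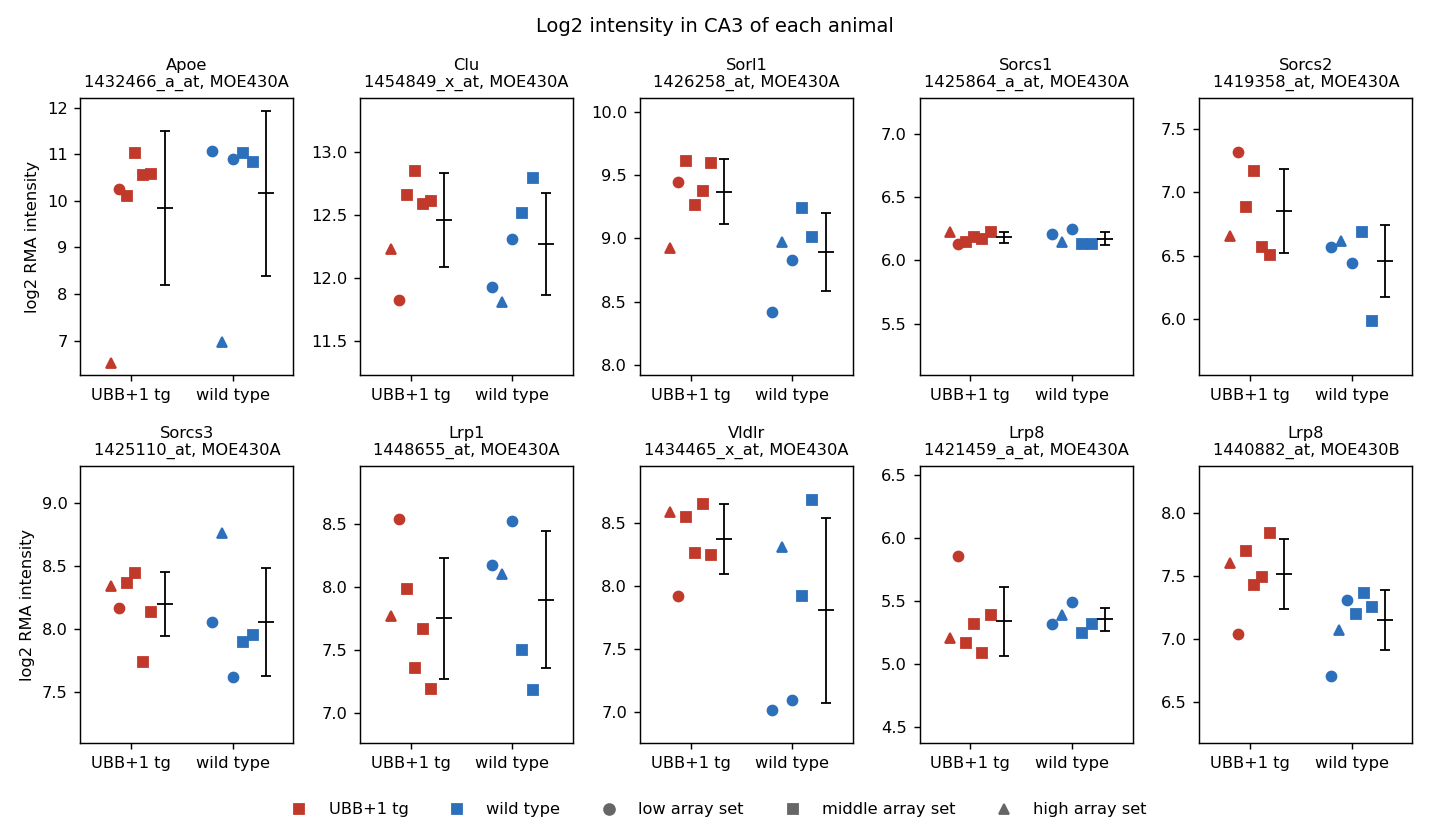
Log2 RMA intensity in CA3 of each animal for the representative probe set of each gene, its brightest on MOE430A, and for Lrp8 also 1440882_at on MOE430B, with UBB+1 tg in red left of wild type in blue. Symbols give the array set, the dash and bar give mean and SD, and the panels have different ranges. The 2 triangles of Apoe at 6.52 (UBB+1 tg) and 6.98 (wild type) stand apart, while for Sorl1 5 of 6 UBB+1 tg animals lie above the highest wild-type animal.

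Clu, the gene of the secreted chaperone clusterin, lies on chromosome 14 (65968483 to 65981548) and had 4 probe sets on MOE430A, 3 of them of the _x_at kind, whose probes can also bind related transcripts. In the representative probe set 1454849_x_at, UBB+1 tg mice were lowest at 11.82, with a median of 12.60 and a highest value of 12.85, and wild-type mice were at 11.93, 11.81, 12.31, 12.51 and 12.79. The genotypes overlapped almost fully, with a log2 fold change of 0.19 ± 0.22 (SE) that was 0.02 in the blocked fit. In 1437689_x_at, UBB+1 tg mice were lowest at 10.88, with a median of 11.54 and a highest value of 11.78, and wild-type mice were at 10.68, 10.83, 10.85, 11.66 and 11.42. Here 5 of 6 UBB+1 tg animals lay above the wild-type mean, and the log2 fold change was 0.38 ± 0.21 (SE; limma, adjusted p = 0.984), or 0.21 with the block. UBB+1 tg mice were higher in all 3 array sets in this probe set, by 0.11 in the low, 0.02 in the middle and 0.85 in the high set, where tg270 stood at 11.68 and wt289 at 10.83.

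The other probe sets of Clu differed less between genotypes, at 0.16 ± 0.18 (SE) for 1437458_x_at and -0.07 ± 0.32 (SE) for 1418626_a_at. In 1418626_a_at the high set was 2.23-fold lower than the other animals (8.49 in tg270 and 8.41 in wt289), the direction seen in Apoe. In the 3 probe sets of the _x_at kind the mean of the high set was 1.04-fold to 1.35-fold lower than that of the other animals. Probe sets of one gene thus gave different orders of the animals. The array set held 68.1% to 84.1% of the variance of the Clu probe sets, and genotype 0.387% to 23.3%.

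Lrp1, a large endocytic receptor for Apoe, for α2-macroglobulin and for the amyloid precursor protein, lies on chromosome 10 (127538157 to 127621148). In 1448655_at on MOE430A, UBB+1 tg mice were lowest at 7.19, with a median of 7.72 and a highest value of 8.54, and wild-type mice were at 8.17, 8.10, 8.52, 7.50 and 7.18. The log2 fold change was -0.15 ± 0.28 (SE), less than the SD of 0.48 in UBB+1 tg mice and 0.54 in wild-type mice. It was 0.09 in the blocked fit and 0.21 in the middle set alone. The level followed the array set, with means of 8.41 in the low, 7.48 in the middle and 7.93 in the high set, an order unlike that of Apoe. The second probe set, 1442849_at on MOE430B, was below the 25th percentile of its array, and its log2 fold change was -0.05 ± 0.20 (SE).

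Vldlr, a receptor for Apoe-containing particles and for reelin, lies on chromosome 19 (27216480 to 27254231) and had 6 probe sets, of which 5 had a higher mean in UBB+1 tg mice. In its representative probe set 1434465_x_at, UBB+1 tg mice were lowest at 7.92, with a median of 8.41 and a highest value of 8.65, and wild-type mice were at 7.02, 8.31, 7.10, 7.92 and 8.69. All 6 UBB+1 tg animals lay above the wild-type mean, but the highest animal was a wild-type one. The mean was 8.37 ± 0.28 in UBB+1 tg mice and 7.81 ± 0.74 in wild-type mice (SD, n = 6 and 5), which is a log2 fold change of 0.56 ± 0.29 (SE; limma, unadjusted p = 0.0802 and adjusted p = 0.984). With genotype alone this was the highest fold change of the 25 probe sets. In the blocked fit it was 0.35, below the 0.47 of Sorcs2 and the 0.39 of Sorl1 1426258_at. The study selected Vldlr and Sorl1 among other genes on these same samples, so their direction here is not independent evidence.

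The 2 lowest wild-type animals, wt287 and wt290, belong to the low array set, which holds 1 of 6 UBB+1 tg and 2 of 5 wild-type animals. The mean of 1434465_x_at was 7.35 in the low set, 8.39 in the middle set and 8.45 in the high set. The blocked value has a standard error of 0.17 (limma, adjusted p = 0.705). Within the sets the difference was 0.86 in the low, 0.12 in the middle and 0.28 in the high set. UBB+1 tg mice were thus above wild type in every set, by the least in the middle set, which holds most animals.

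The other Vldlr probe sets gave smaller values with wide errors. The log2 fold change was 0.35 ± 0.46 (SE) for 1417900_a_at, 0.31 ± 0.29 (SE) for 1435893_at on MOE430B and 0.27 ± 0.36 (SE) for 1438258_at on MOE430B. For 1417900_a_at the value was -0.06 in the blocked fit, and the middle set stood at 6.29 in UBB+1 tg mice and 6.29 in wild-type mice. For 1438258_at the array set held 87.5% of the variance, with means of 6.98 in the low and 8.37 in the middle set. The probe sets 1442169_at and 1451156_s_at were below the 25th percentile of their array, and their fold changes were -0.06 ± 0.17 (SE) and 0.02 ± 0.08 (SE).

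**Figure D3:**
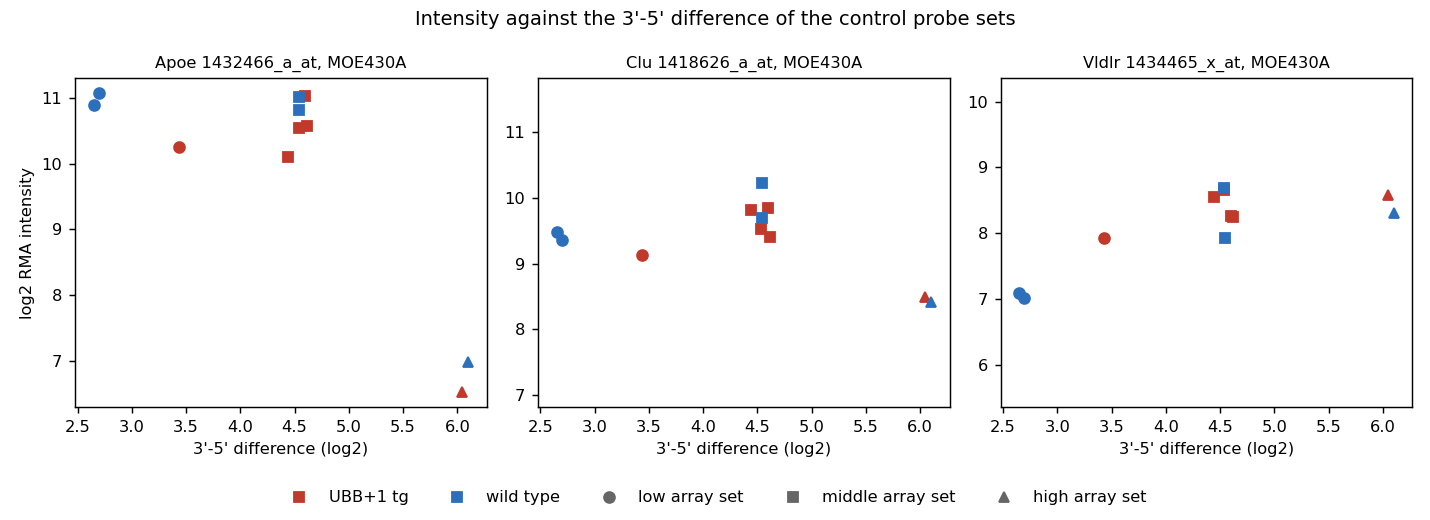
Log2 RMA intensity (vertical) against the 3'-5' difference of the control probe sets (horizontal, log2) for Apoe 1432466_a_at, Clu 1418626_a_at and Vldlr 1434465_x_at in the 11 animals of MOE430A, UBB+1 tg in red and wild type in blue, with symbols for the array sets. The 2 animals above 6.0 on the horizontal axis are the lowest of both genotypes for Apoe and Clu but not for Vldlr, whose lowest values, 7.02 and 7.10, belong to the 2 wild-type animals at the left.

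Lrp8, which encodes apolipoprotein E receptor 2, the other reelin receptor, lies on chromosome 4 (107802200 to 107876840). In 1440882_at on MOE430B, UBB+1 tg mice were lowest at 7.04, with a median of 7.55 and a highest value of 7.84, and wild-type mice were lowest at 6.70, with a median of 7.23 and a highest value of 7.36. Of the 6 UBB+1 tg animals, 5 lay above the highest wild-type animal, and tg271 of the low array set lay below the wild-type mean. The mean was 7.52 ± 0.28 in UBB+1 tg mice and 7.15 ± 0.24 in wild-type mice (SD, n = 6 each), which is a log2 fold change of 0.37 ± 0.14 (SE; limma, unadjusted p = 0.0213 and adjusted p = 1.00). UBB+1 tg mice were higher in all 3 array sets, by 0.03 in the low, 0.34 in the middle and 0.53 in the high set, and the fold change with the block was 0.30 ± 0.12 (SE; limma, adjusted p = 0.900). Without both animals of the high set it was 0.33 ± 0.16 (SE; limma, unadjusted p = 0.0691), past the threshold no longer.

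The second Lrp8 probe set on MOE430B, 1442347_at, was lowest at 5.55 in UBB+1 tg mice, with a median of 7.17 and a highest value of 7.56. In wild-type mice it was lowest at 6.60, with a median of 6.82 and a highest value of 7.24. The lowest value of all animals was that of tg271, which in 1440882_at was the lowest UBB+1 tg animal only. In 1442347_at, 3 UBB+1 tg animals lay above the highest wild-type animal. The log2 fold change was 0.12 ± 0.29 (SE), and 0.40 without tg271. On MOE430A, 1421459_a_at was 5.34 ± 0.28 in UBB+1 tg mice and 5.36 ± 0.09 in wild-type mice, and the log2 fold change was -0.02 ± 0.13 (SE). The 3 probe sets of Lrp8 thus did not share a difference of one size.

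Sorl1, the sorting receptor SorLA, which binds the amyloid precursor protein and Apoe and recycles cargo with the retromer, lies on chromosome 9 (41964709 to 42124297). All of its 3 probe sets had a higher mean in UBB+1 tg mice. In 1426258_at on MOE430A, UBB+1 tg mice were lowest at 8.92, with a median of 9.41 and a highest value of 9.61, and wild-type mice were at 8.41, 8.97, 8.83, 9.24 and 9.01. Of the 6 UBB+1 tg animals, 5 were above every wild-type animal, and tg270 of the high array set was the exception. The mean was 9.37 ± 0.26 in UBB+1 tg mice and 8.89 ± 0.31 in wild-type mice (SD, n = 6 and 5), which is a log2 fold change of 0.48 ± 0.16 (SE; limma, unadjusted p = 0.0118 and adjusted p = 0.984).

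In the blocked fit the fold change of Sorl1 1426258_at was 0.39 ± 0.14 (SE; limma, adjusted p = 0.685), and without the high set it was 0.59 ± 0.16 (SE; limma, adjusted p = 0.913). It was 0.83 in the low and 0.34 in the middle set, and in the high set tg270 was at 8.92 and wt289 at 8.97, a difference of -0.04. This was one of the few probe sets here in which genotype held more of the variance (47.0%) than the array set did (38.9%). The other Sorl1 probe sets were 0.16 ± 0.15 (SE) for 1460390_at on MOE430A and 0.22 ± 0.14 (SE; limma, unadjusted p = 0.144) for 1453003_at on MOE430B. In the blocked fit these were 0.06 and 0.14. For 1460390_at, UBB+1 tg mice were different from wild type by -0.09 in the low, 0.10 in the middle and 0.16 in the high set. In 1453003_at, UBB+1 tg mice were lowest at 9.87, with a median of 10.12 and a highest value of 10.42, and wild-type mice were lowest at 9.50, with a median of 10.02 and a highest value of 10.24. For 1453003_at they were higher in all 3 array sets, by 0.33, 0.08 and 0.09 in the low, middle and high set.

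Sorcs2, a receptor of proneurotrophins and partner of the neurotrophin receptor p75, lies on chromosome 5 (36017180 to 36398197) and had a single probe set, 1419358_at on MOE430A. UBB+1 tg mice were lowest at 6.51, with a median of 6.77 and a highest value of 7.32, and wild-type mice were at 6.57, 6.61, 6.44, 6.69 and 5.98. All 6 UBB+1 tg animals lay above the wild-type mean, and 3 above every wild-type animal. The mean was 6.85 ± 0.33 in UBB+1 tg mice and 6.46 ± 0.28 in wild-type mice (SD, n = 6 and 5), which is a log2 fold change of 0.39 ± 0.18 (SE; limma, unadjusted p = 0.0471 and adjusted p = 0.984). UBB+1 tg mice were higher by 0.82 in the low, 0.45 in the middle and 0.04 in the high set, and the value with the block was 0.47 ± 0.18 (SE; limma, adjusted p = 0.687). The array set held 3.52% of the variance of Sorcs2, the least of the 25 probe sets, and genotype 32.4%. The value was 0.27 without wt321, the lowest wild-type animal (limma, unadjusted p = 0.127). The unadjusted p was also above 0.05 when tg271, tg273, tg274, wt287 or wt290 was left out, at 0.0557 to 0.0974, and it was 0.0756 with array weights and 0.135 in the largest array set alone.

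Sorcs3, a receptor of the postsynaptic density, lies on chromosome 19 (48206025 to 48805505). In 1425110_at, UBB+1 tg mice were lowest at 7.74, with a median of 8.25 and a highest value of 8.44, and wild-type mice were at 8.06, 8.76, 7.62, 7.89 and 7.95. The log2 fold change was 0.14 ± 0.19 (SE), and the highest animal was wt289 of the high set. Without wt289 the fold change was 0.32 (limma, unadjusted p = 0.0491, adjusted p = 0.840), and without wt290, the lowest wild-type animal, it was 0.03. Its other probe set, 1425111_at, was below the 25th percentile of the array and had a fold change of -0.07 ± 0.16 (SE).

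Sorcs1, which sorts the amyloid precursor protein and synaptic adhesion and glutamate receptor proteins, also lies on chromosome 19 (50143295 to 50679129). In 1425864_a_at, UBB+1 tg mice spanned 6.13 to 6.23 and wild-type mice 6.13 to 6.25, the narrowest spread of the 9 representative probe sets. The log2 fold change was 0.01 ± 0.06 (SE). Of its other probe sets, both below the 25th percentile of their array, 1421509_at was at -0.02 ± 0.08 (SE) and 1436662_at on MOE430B at 0.10 ± 0.08 (SE). The tight and nearly equal values of Sorcs1 stood beside the wider ones of Sorl1 and Sorcs2, but a difference between fold changes of these receptors was not tested.

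**Figure D4:**
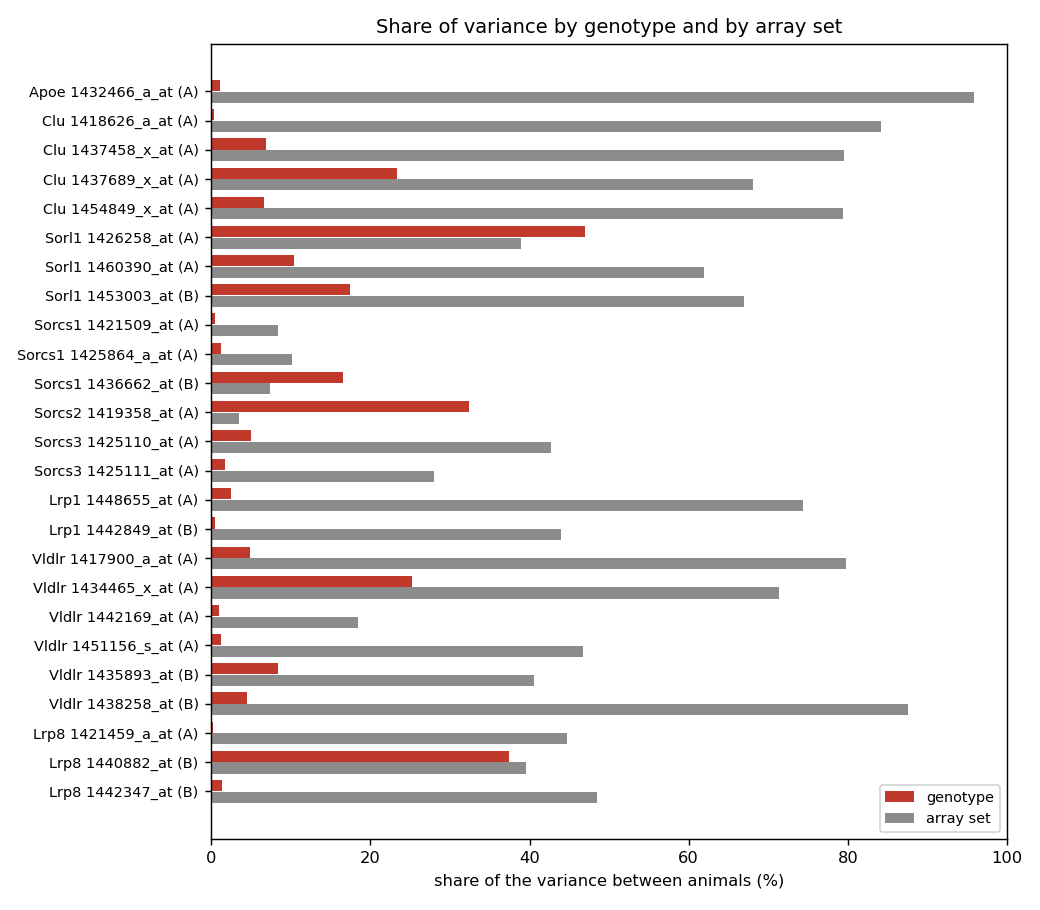
Share of the variance between animals (%) held by genotype (red) and by array set (grey) for each of the 25 probe sets, each from a fit with that factor alone, so that the shares can overlap. The array set holds more than genotype in 16 of 18 probe sets on MOE430A and 6 of 7 on MOE430B, and its share runs from 3.52% for Sorcs2 to 95.9% for Apoe. The share of all probe sets with this order was not counted. Over all probe sets the median was 39.6% for array set and 5.40% for genotype on MOE430A, and 31.5% and 4.01% on MOE430B. The sets were found from these same profiles and have more levels than genotype, which favours a larger share.

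Across the 9 genes, the array set held a median of 54.4% of the variance between animals on MOE430A and 43.9% on MOE430B, against 39.6% and 31.5% over all probe sets of these arrays. Genotype held a median of 3.64% and 8.37%, against 5.40% and 4.01% over all probe sets. The 3 exceptions in which genotype held more were Sorl1 1426258_at, Sorcs2 1419358_at and Sorcs1 1436662_at. Against the other animals, the high array set was lower by the most in Apoe (-3.95) and Clu 1418626_a_at (-1.16). Next were Vldlr 1417900_a_at (-0.47), Vldlr 1438258_at (-0.44) and Clu 1454849_x_at (-0.44). It was higher by the most in Vldlr 1435893_at (0.85), Sorcs3 1425110_at (0.51) and Vldlr 1434465_x_at (0.41). Against the middle set, the low set (1 UBB+1 tg and 2 wild-type animals) was lower in every probe set of Vldlr, Clu and Sorl1. For their representatives the difference was -1.04, -0.65 and -0.45 on the log2 scale. The low set was also lower in Lrp8 1440882_at (-0.45) and 1442347_at (-0.85). It was higher in Lrp8 1421459_a_at, in Sorcs2 and in Lrp1 (0.93 for 1448655_at). The genes thus did not all follow the array sets in one common way.

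The surrounding genes of these pathways gave no calls either. Of 11 measured members of the wider LDL receptor family and its regulators (15 listed), 7 were higher and 4 lower in UBB+1 tg mice, with a median log2 fold change of 0.06 and 0 at an unadjusted p under 0.05. The extremes were Lrp11 at 0.22 ± 0.12 (SE) and Lrp10 at -0.28 ± 0.23 (SE). For this list and those below, 3.48% of all probe sets on MOE430A and 3.05% on MOE430B met that threshold in either direction. Of 13 further VPS10 receptors, retromer subunits and adaptors, 9 were higher and 4 lower, with a median of 0.11. Snx1, a sorting nexin of the retromer, was 0.45 ± 0.20 (SE; limma, unadjusted p = 0.0485 and adjusted p = 0.984), and the lowest was Snx27, its relative that recycles receptors to the surface, at -0.14 ± 0.08 (SE). The mean level of the 11 of these genes on MOE430A was 9.56 ± 0.11 in UBB+1 tg mice and 9.42 ± 0.13 in wild-type mice (SD, n = 6 and 5), and the ranges of 9.40 to 9.72 in UBB+1 tg mice and 9.28 to 9.53 in wild-type mice overlapped. The exact permutation p of this level was 0.0887, the lowest of all the lists and not adjusted for their number.

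Of 10 genes of the reelin pathway, 7 were higher and 3 lower, with a median of 0.10. Crk, an adaptor downstream of Dab1, was 0.65 ± 0.29 (SE; limma, unadjusted p = 0.0466 and adjusted p = 0.984), and Itga3, an integrin subunit, was lowest at -0.24 ± 0.16 (SE). Reln itself was 0.10 ± 0.25 (SE) and Dab1, the cytosolic adaptor that binds both receptors, was 0.10 ± 0.11 (SE). Of 16 measured genes of lipid transport and its regulators (18 listed), 10 were higher and 6 lower, with a median of 0.03. Lcat, which esterifies cholesterol on lipoproteins, was -0.26 ± 0.11 (SE; limma, unadjusted p = 0.0386 and adjusted p = 0.984), and Lpl, the lipoprotein lipase, was highest at 0.36 ± 0.26 (SE).

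No marker of other cells in or near the cut region was called. By the mean level over their genes on MOE430A, oligodendrocyte markers were 8.10 ± 0.18 in UBB+1 tg mice and 8.05 ± 0.13 in wild-type mice, and endothelial markers 6.54 ± 0.12 in UBB+1 tg mice and 6.50 ± 0.11 in wild-type mice (SD, n = 6 and 5). Their median log2 fold changes were 0.03 over 9 genes and 0.10 over 7 genes, and those of 4 choroid plexus and 7 interneuron markers were 0.00 and 0.02. The 6 neuronal markers had a median of 0.32 (4 higher, 2 lower) and the 5 markers of CA3 neurons one of 0.34 (3 higher, 2 lower). Of the neuronal markers only Map2, a dim probe set, met an unadjusted p under 0.05. It was lower, at -0.18 ± 0.07 (SE; limma, unadjusted p = 0.0321 and adjusted p = 0.984). The mean level of the 3 CA3 markers on MOE430A (Bok, Iyd and Pvrl3) was 9.23 to 10.50 in UBB+1 tg mice and 8.92 to 10.27 in wild-type mice, with 9.29 in tg270 and 8.92 in wt289 of the high array set. For CA2, CA1 and dentate granule cells the medians were 0.27 over 3 genes, -0.01 over 4 genes and 0.00 over 5 genes. Whether the neuronal markers had a part in the values of the neuronal receptors Sorl1, Sorcs2, Vldlr and Lrp8 was not tested.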

How the data were processed

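Expression was measured on Affymetrix MOE430A and MOE430B arrays, which have 1 colour. The intensity values on MOE430A are the authors' RMA values in whole numbers and were converted to log2 here, and those on MOE430B were deposited by the authors as log2 RMA values. Each array was normalized on its own, so each was tested alone. The study's main method works on single probes and was not repeated. Its second test, limma with a false discovery rate of 10%, was used (limma 3.58.1 in R 4.3.3, lmFit and eBayes, Benjamini-Hochberg over all probe sets of an array, UBB+1 tg minus wild type). The study reported regulated genes at this rate by its main method and states that limma on RMA values backed them. Here limma called no probe set on either array, and the reason for this difference was not tested. The code was also run on simulated arrays. These had independent noise without array sets and larger changes than these genes showed, so they do not cover the present setting.

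Of 22690 and 22575 probe sets, 64 controls on each array and 1 transgene probe set on MOE430A were left out. Genes and lists (related genes and cell type markers) were chosen with earlier results of these data known. All 9 genes are named with all their probe sets, a gene's representative is its brightest probe set on MOE430A, and of each related list the highest, the lowest and those at an unadjusted p under 0.05 are named, with Reln and Dab1 named beside the rule. Arrays were clustered into 3 sets by their Pearson r (complete linkage). The number of arrays limits the precision. Animals were taken as separate samples from their labels.

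The alternatives were a second quantile normalization, median centring, array weights, a trended and robust variance, the array set as a block, the largest array set alone, the 3'-5' difference as a covariate, 1 adjustment over both arrays, a false discovery rate of 5%, leaving out dim probe sets or those with the endings _s_at, _x_at and _a_at, averaging probe sets per gene, the animals on both arrays only, and each animal left out. Leaving out the high array set, and the alternatives of probe sets that are not representative, were added after seeing the data.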

Additional observations from a re-analysis of the deposited data

Results flagged for a closer look

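Of 50 groups of animals tested over the 25 probe sets, 5 held an animal far from the rest of its genotype, where chance gives about 1 in 20. For Apoe 1432466_a_at, tg270 was at 6.524 on the log2 scale and the nearest UBB+1 tg animal at 10.11, and wt289 was at 6.977 and the nearest wild-type animal at 10.82. Both are the animals of the high array set. For Clu 1437458_x_at, tg271 was at 10.69 and the nearest UBB+1 tg animal at 11.26, and for Lrp1 1442849_at on MOE430B tg271 was at 4.805 and the nearest at 3.688. For Vldlr 1451156_s_at, wt291 was at 4.087 and the other wild-type animals at 4, where the deposited whole numbers leave only coarse steps.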

How the results depend on the processing

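No probe set of the 9 genes passed the false discovery rate of 10% under any alternative run, and the lowest adjusted p was 0.473 (limma). Of 557 fold changes under alternatives, 518 kept their direction and 39 turned, in 13 of the 25 probe sets. Those of Sorl1 (3 probe sets), Sorcs2, Lrp8 1440882_at and Vldlr 1434465_x_at kept it throughout. So did Clu 1437689_x_at and 1454849_x_at, Sorcs3 1425110_at, Vldlr 1435893_at and 1438258_at, and Sorcs1 1436662_at. The count at an unadjusted p under 0.05 was 1 on MOE430A in the largest array set alone, and on MOE430B 2 in the largest set alone, 0 without the high set and 0 with probe sets averaged. When 1 animal was left out, MOE430A gave 1 to 4 and MOE430B gave 0 to 3. The share of all probe sets at this threshold was not counted in these settings, so the counts cannot be set against the arrays. The 3'-5' difference, entered as a covariate, gave 0.25 for Apoe, 0.045 for Clu 1418626_a_at, 0.022 for Lrp8 1421459_a_at and 0.041 for Lrp1 1442849_at. With the array set as a block, Lrp1 was 0.095 (1448655_at) and 0.040 (1442849_at), Vldlr -0.062 (1417900_a_at) and -0.018 (1451156_s_at), and Lrp8 0.061 (1421459_a_at) and -0.022 (1442347_at). In the largest set alone, Lrp1 1448655_at was 0.21 and Clu 1437458_x_at -0.088. With array weights, Clu 1418626_a_at was 0.068 and Sorcs3 1425111_at 0.045. Without the high set, Sorcs1 1425864_a_at was -0.0055, Lrp8 1421459_a_at 0.020 and Lrp1 1442849_at 0.014. Averaged probe sets gave -0.0028 for Sorcs1. The cause of these turns was not tested.

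Leaving out 1 animal, the fold change ranged from -1.11 to 0.35 for Apoe, -0.32 to 0.13 for Clu 1418626_a_at, -0.32 to 0.011 for Lrp1 1448655_at, -0.25 to 0.025 for Lrp1 1442849_at, -0.12 to 0.035 for Lrp8 1421459_a_at, -0.00028 to 0.40 for Lrp8 1442347_at, -0.069 to 0.025 for Sorcs1 1421509_at, -0.0014 to 0.028 for Sorcs1 1425864_a_at, -0.17 to 0.0048 for Sorcs3 1425111_at, -0.13 to 0.095 for Vldlr 1442169_at and -0.0045 to 0.068 for Vldlr 1451156_s_at. Other probe sets kept their direction but moved by over 1.5 times. Among these, Vldlr 1434465_x_at was 0.37 without wt287 and 0.38 without wt290, against 0.78 without wt321 at the other end. The ranges were 0.12 to 0.71 for Vldlr 1417900_a_at, 0.096 (without wt331) to 0.54 (without wt289) for Vldlr 1435893_at, 0.067 (without wt287) to 0.47 (without tg271) for Vldlr 1438258_at, 0.073 (without wt289) to 0.32 (without wt321) for Clu 1454849_x_at, 0.076 to 0.27 for Clu 1437458_x_at, 0.067 (without tg277) to 0.25 (without tg271) for Sorl1 1460390_at, 0.13 to 0.28 for Sorl1 1453003_at, 0.032 to 0.32 for Sorcs3 1425110_at and 0.061 to 0.13 for Sorcs1 1436662_at. No paired analysis was possible because no number or litter in the labels ties a UBB+1 tg animal to a wild-type one. Dim probe sets, of Sorcs1, Sorcs3, Lrp1 and Vldlr, lie near the background and limit what can be seen of these transcripts.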
